A study of Mus musculus with 16 samples.

Results

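Il1a, Il1b, Il1rn, Il18, Il18bp, Il1r2 and Il1rap are genes of the interleukin-1 (IL-1) family, encoding ligands, receptors and the proteins that block them. They were chosen by name and are 7 of the 55487 genes counted by RNA sequencing in mouse bone marrow-derived macrophages (BMDMs). All 7 were among the 12372 genes above 1 count in 1000000 (CPM, the counts of a sample scaled to that total) in at least 2 of the 16 samples. Il1a and Il1r2 passed this filter only through the samples that had received tumor medium, since both were under 1 CPM in every sample without it.

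The study asked how macrophages respond to factors shed by mammary tumor cells, and how that response changes when JAK and NF-κB signaling are blocked. BMDMs were grown from the marrow of 8 week old wild type (WT) Balb/c mice, a strain given with no engineered allele. They were kept in plain medium (DMEM, n = 2), DMEM with the JAK1 and JAK2 inhibitor ruxolitinib (DMEM + Rux, n = 3) or medium conditioned by the 4T1 mouse mammary tumor line (CM, n = 3). The other groups were CM with 0.5 µM ruxolitinib labelled 4 h (CM + Rux, n = 3), the same labelled 2 h (CM + Rux 2 h, n = 2), and CM with 0.5 µM ruxolitinib and 0.8 µM IKK-16, an inhibitor of the IκB kinases (CM + Rux + IKK-16, n = 3). Every CM group used medium from 1 tumor cell line, the dose of ruxolitinib in DMEM and the meaning of the 2 h label were not given in the sources used here, and the methods describe a 4 h exposure to CM. Replicate numbers came from the labels, and nothing said whether replicates were separate animals or cultures, so p-values measured only the spread between these samples.

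IL-1α and IL-1β are agonists that bind IL-1 receptor type 1, which then recruits the accessory chain IL1RAP and signals through MyD88 and the IRAK kinases to NF-κB. The pathway holds itself back at several steps: IL1RN occupies the receptor without signaling, IL1R2 is a decoy receptor that binds IL-1 without signaling, and IL18BP captures IL-18 outside the cell. IL-1β and IL-18 are made as precursors that caspase-1 cleaves in inflammasomes, so mRNA levels are not levels of active cytokine, and macrophages are a main source of IL-1β in inflamed and tumor tissue.

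Total counts per sample ran from 18449388 to 46215853. All 8 macrophage markers were detected, with summed levels of 40148 to 57183 CPM. Neutrophil markers, relevant because neutrophils also express Il1b, Il1rn and Il1r2, summed to 2.1 to 8.24 CPM, with the defining genes Ly6g and Retnlg at 0 in every sample and 7 of the 8 markers averaging under 1 CPM. The neutrophil sum was higher in CM (7.52 to 8.18 CPM) than in DMEM (2.1 to 3.27 CPM). Epithelial markers summed to at most 1.45 CPM, T and NK cell markers to at most 0.055 CPM, B cell markers to at most 1.23 CPM and dendritic cell markers to at most 12.8 CPM, that last value in a CM + Rux 2 h sample. CPM values were scaled between samples by relative log expression, which set the median gene 0.31 log2 units higher in CM relative to DMEM than total counts alone.

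3 of the genes lie on mouse chromosome 2 (GRCm38). Il1a (chr2:129299610-129309972) and Il1b (chr2:129364570-129371139) are neighbors on the minus strand with 54.6 kb between them, and Il1rn is on the plus strand at chr2:24336853-24351494. Il18 is at chr9:50554827-50581840, Il18bp at chr7:102014885-102018690, Il1r2 at chr1:40074079-40125231 and Il1rap at chr16:26581704-26730117. In the exon models, 25 bases of Il1b face the antisense transcript Il1bos, 80 bases of Il18bp face Numa1, 222 bases of Il1a face Gm14023 and 552 bases of Il1rap face Gm20319. Counting was strand-specific, so these opposite-strand genes were counted apart. All reads of a gene were counted together, and the secreted and intracellular forms of Il1rn and the membrane and soluble forms of Il1rap were not separated.

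RefSeq gave promoters for all 7 genes, 9 in all since Il1rn has 3, each covering 250 bases before and 50 after a transcription start on GRCm38.p6. The 250 bases before the start are shown for Il1a, Il1b and the first Il1rn promoter because these 3 of the 7 genes had the largest changes in CM and then differed in their response to the inhibitors. Capitals mark a TATA box (TATAAA) or an AP-1 motif (TGANTCA).
Il1a, chr2:129309973-129310222, minus strand: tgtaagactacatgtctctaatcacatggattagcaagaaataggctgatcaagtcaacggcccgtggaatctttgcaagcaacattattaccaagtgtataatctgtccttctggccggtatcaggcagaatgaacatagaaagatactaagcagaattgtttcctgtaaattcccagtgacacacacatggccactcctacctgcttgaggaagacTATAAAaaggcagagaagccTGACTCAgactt
Il1b, chr2:129371140-129371389, minus strand: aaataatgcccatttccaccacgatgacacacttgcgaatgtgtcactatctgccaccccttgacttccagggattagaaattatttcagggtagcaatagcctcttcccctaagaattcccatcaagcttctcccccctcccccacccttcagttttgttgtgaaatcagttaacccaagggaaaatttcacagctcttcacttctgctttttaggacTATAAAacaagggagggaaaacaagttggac
Il1rn, chr2:24336610-24336859, plus strand: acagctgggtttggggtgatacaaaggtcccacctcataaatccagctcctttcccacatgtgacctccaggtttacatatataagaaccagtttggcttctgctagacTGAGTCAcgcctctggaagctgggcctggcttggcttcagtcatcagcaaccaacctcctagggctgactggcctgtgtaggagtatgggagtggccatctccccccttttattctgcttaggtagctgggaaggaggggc
The TATA box letters stood at 32 to 27 bases before the start of Il1a and 31 to 26 before that of Il1b. On the strand opposite to the gene, they stood at 175 to 170 bases before the start of Il18. They also stood on the opposite strand 14 to 19 bases past the third start of Il1rn. An AP-1 motif stood at 12 to 6 bases before the Il1a start and at 141 to 135 bases before the first Il1rn start. It matched in neither the second nor the third Il1rn promoter. Over both strands of 32851 RefSeq mouse promoters of the same length, 13.6% held the TATA box letters and 7.81% the AP-1 letters. The STAT-type GAS motif (TTCNNNGAA, in 8.30% of promoters) matched only in Il1r2, 111 to 103 bases before the start, and the interferon-type ISRE motif (in 3.44%) only in Il1rap, 20 to 29 bases past the start. The kappaB consensus, in 8.46% of promoters, matched in none of the 9, which says only that these letters are not in these windows. No motif letters overlapped those of another motif in these promoters.

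A gene was called when its adjusted p was under 0.05 in edgeR's quasi-likelihood test, with Benjamini-Hochberg adjustment over all 12372 genes, and its log2 fold change was beyond 0.5 either way. In CM against DMEM, which asks what tumor medium does, 6 of the 7 genes were called higher and none lower, beside 20.9% of all genes called higher, 24.1% called lower and 45.0% called either way. Il1a and Il1r2 are among the 6 and passed the filter only through samples with CM, so the count is a description. The median log2 fold change of the 7 was 2.54, beside -0.00 over all genes. This median is the value of Il1r2 and is likewise a description. With ruxolitinib in both arms (CM + Rux against DMEM + Rux), all 7 were called higher, beside 22.3% called higher and 47.3% called either way over all genes. Il1a and Il1r2 again passed the filter only through samples with CM, so this count is a description too. In CM + Rux against CM, which asks what JAK inhibition removes, 1 of 7 was called by the main test, the antagonist Il1rn, which was lower, beside 2.13% called lower, 1.20% called higher and 3.33% called either way. With the replicate number as a block, Il18 (log2 fold change 0.92, adjusted p = 0.0010) and Il1r2 (1.12, adjusted p = 0.031) were also called, both higher. Il1r2 passed the filter through groups with an inhibitor, so its call here is a description. The block gave 745 calls over all genes in place of 412. In CM + Rux + IKK-16 against CM + Rux, 2 of 7 were called lower, Il1a and Il18, beside 3.66% called lower, 4.07% called higher and 7.74% called either way.

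**Figure D1:**
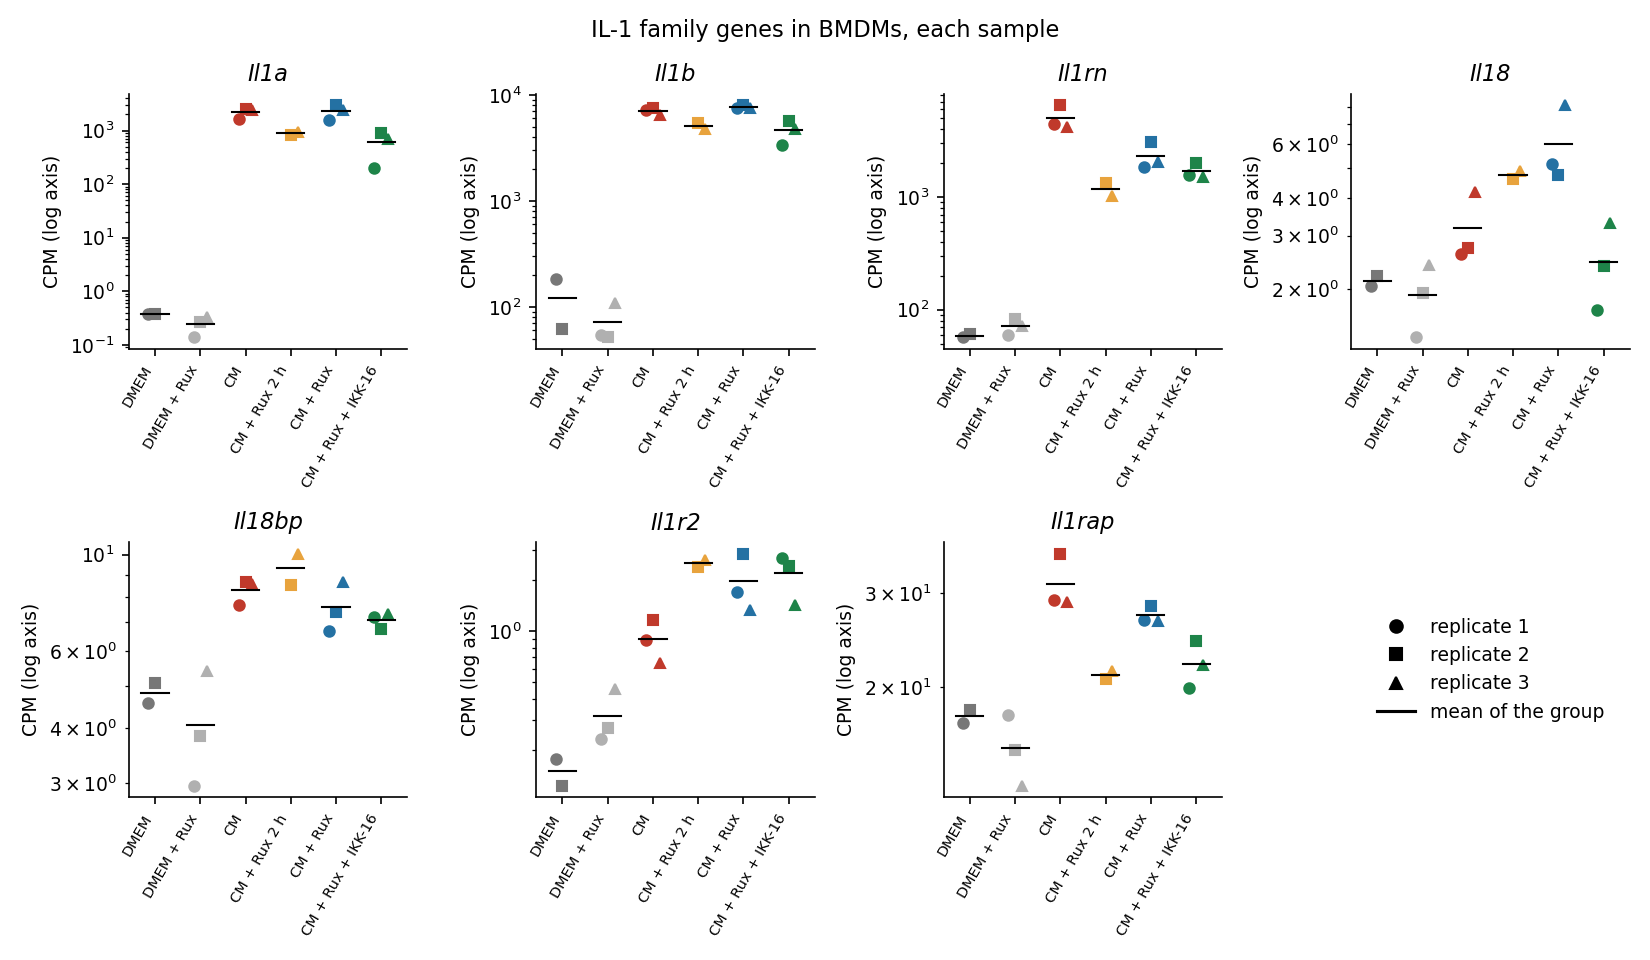
CPM of each gene in each sample (log axes), by group, with replicate numbers as symbols and a line at the mean of the group. Il1a, Il1b and Il1rn rose in every CM group, Il1rn sat lower in CM + Rux than in CM, and Il1a dropped most in CM + Rux + IKK-16.

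In DMEM + Rux against DMEM, 0 of 7 genes were called by edgeR and none had an unadjusted p under 0.05, beside 0.970% called over all genes; DESeq2 also called 0. In CM + Rux + IKK-16 against CM, Il1r2 was called higher and Il1a, Il1rn and Il1rap lower (4 of 7), beside 6.60% called higher, 6.13% called lower and 12.7% called either way. Il1r2 passed the filter through groups with an inhibitor, so its part in this count is a description. In CM + Rux against CM + Rux 2 h, Il1a and Il1rn were called higher (2 of 7), beside 10.7% called higher and 23.3% called either way. Several comparisons shared groups, CM + Rux being part of 5 of them, so their values are given side by side and not as separate evidence. Scaling by total counts left 25.0% of calls in CM against DMEM higher, in place of 46.4%, and left 26.7% in place of 47.1% in CM + Rux against DMEM + Rux. The same scaling left 67.5% of calls higher in place of 52.7% in CM + Rux + IKK-16 against CM + Rux, and 68.1% in place of 51.9% against CM.

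Il1a, which encodes the agonist IL-1α, went from near absence to one of the most abundant mRNAs. Its level was 0.38 and 0.37 CPM in the DMEM samples, resting on 13 and fewer reads a sample, and 0.14, 0.27 and 0.32 CPM in DMEM + Rux. The CM samples held 1631, 2549 and 2410 CPM. No CM sample came near the DMEM samples, and the log2 fold change was 12.49 (SE 0.83, adjusted p = 3.9e-08). Il1a passed the filter only through samples with CM, so it had to differ and these values are a description. Per kilobase of exon, Il1a ranked 23 among the 12372 genes in CM, against 11848 in DMEM. As in any bulk sample, more cells expressing a gene and more RNA per cell cannot be told apart.

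Ruxolitinib left the Il1a level in CM within the replicate spread, and IKK-16 lowered it. CM + Rux held 1565, 2984 and 2424 CPM, which overlapped CM, and the log2 difference was 0.08 (95% interval -0.75 to 0.91, adjusted p = 0.97). CM + Rux + IKK-16 held 198, 917 and 698 CPM, all below every CM + Rux sample. The decrease against CM + Rux was 3.84-fold (log2 fold change -1.94, SE 0.40, adjusted p = 0.0060). It was -1.52 without the lowest sample, CM + Rux + IKK-16 replicate 1, and -2.37 without replicate 2, and stayed called both times. Fitting the compared groups alone gave an adjusted p of 0.058. Against CM, without inhibitors, the decrease was 3.63-fold (adjusted p = 0.0047). The lowest of these samples still lay far above every DMEM sample. CM + Rux 2 h held 826 and 953 CPM, below all CM + Rux samples, and CM + Rux was 2.61-fold higher (adjusted p = 0.027). That call was lost without either 2 h sample (adjusted p = 0.14 and 0.099) and without CM + Rux replicate 2 (0.072) or 3 (0.053).

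Il1b, which encodes the agonist IL-1β, was already expressed in DMEM, at 182 and 62.0 CPM, and reached 7254, 7498 and 6510 CPM in CM. The DMEM samples lay farther apart on the log scale than the CM samples, which stood far above both. The log2 fold change was 5.86 (SE 0.50, adjusted p = 3.3e-07), a 58.0-fold increase, and it ranged from 5.28 without DMEM replicate 2 to 6.84 without DMEM replicate 1. Per kilobase, Il1b ranked 5 in CM and 4 in CM + Rux among all genes tested, against 566 in DMEM.

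The main test called no change of Il1b with either inhibitor. CM + Rux held 7588, 7993 and 7505 CPM, a log2 difference of 0.12 from CM (95% interval -0.60 to 0.84, adjusted p = 0.95). CM + Rux + IKK-16 held 3354, 5670 and 4797 CPM, all below the CM + Rux samples. That difference was 1.67-fold (log2 -0.74, 95% interval -1.46 to -0.019) with an adjusted p of 0.16. It was called without the filter on low counts (adjusted p = 0.015) and when the compared groups were fitted alone (0.046). DMEM + Rux held 53.9, 51.8 and 109 CPM, with 1 sample inside the range of the DMEM samples and 2 just below it (log2 difference -0.77, adjusted p = 1). At 2 h Il1b held 5411 and 4759 CPM, and the difference of CM + Rux from it was not called (log2 0.60, adjusted p = 0.23).

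Il1rn encodes the IL-1 receptor antagonist, and its mRNA was the 1 member that ruxolitinib lowered in CM by the main test. The DMEM samples held 56.9 and 60.9 CPM and the CM samples 4467, 6563 and 4213 CPM, a log2 fold change of 6.43 (SE 0.32, adjusted p = 3.5e-09). CM + Rux held 1846, 3099 and 2030 CPM. All CM + Rux samples were below all CM samples, and the decrease was 2.19-fold (log2 fold change -1.13, SE 0.21, adjusted p = 0.0068). It ranged from -1.39 to -0.90 when single samples were left out and was called each time, with adjusted p up to 0.045. Fitting the compared groups alone gave an adjusted p of 0.053.

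Il1rn remained strongly induced under ruxolitinib. DMEM + Rux held 59.7, 82.7 and 71.1 CPM, overlapping DMEM, and CM + Rux was 32.6-fold above it (log2 fold change 5.03, SE 0.25, adjusted p = 1.6e-09). The effect of ruxolitinib in CM was 1.40 log2 units more negative than its effect in DMEM (SE 0.33), with an unadjusted p of 7.4e-04 and an adjusted p of 0.081. This was the comparison in which 0 of 7 genes were called, beside 0.412% of all genes, with 2 of them, Il1rn and Il18, under an unadjusted p of 0.05 and 1 called by DESeq2. With the replicate number as a block, which the samples' pairing warrants, it was -1.45 and called (adjusted p = 5.1e-04), as was Il18. It was also called by DESeq2 (0.0018), without the filter (9.3e-05), with total-count scaling (0.040) and without CM + Rux replicate 2 (0.025).

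The further difference of Il1rn with IKK-16 was smaller. CM + Rux + IKK-16 held 1566, 1997 and 1509 CPM, overlapping CM + Rux, and the difference was not called (log2 -0.46, 95% interval -0.92 to -0.0038, adjusted p = 0.17). Against CM the decrease with both inhibitors was 3.01-fold (log2 fold change -1.59, SE 0.22, adjusted p = 1.9e-04). The 2 h samples held 1333 and 1030 CPM. CM + Rux was 1.97-fold above them (adjusted p = 0.0064), a call lost without CM + Rux 2 h replicate 3 (0.080).

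**Figure D2:**
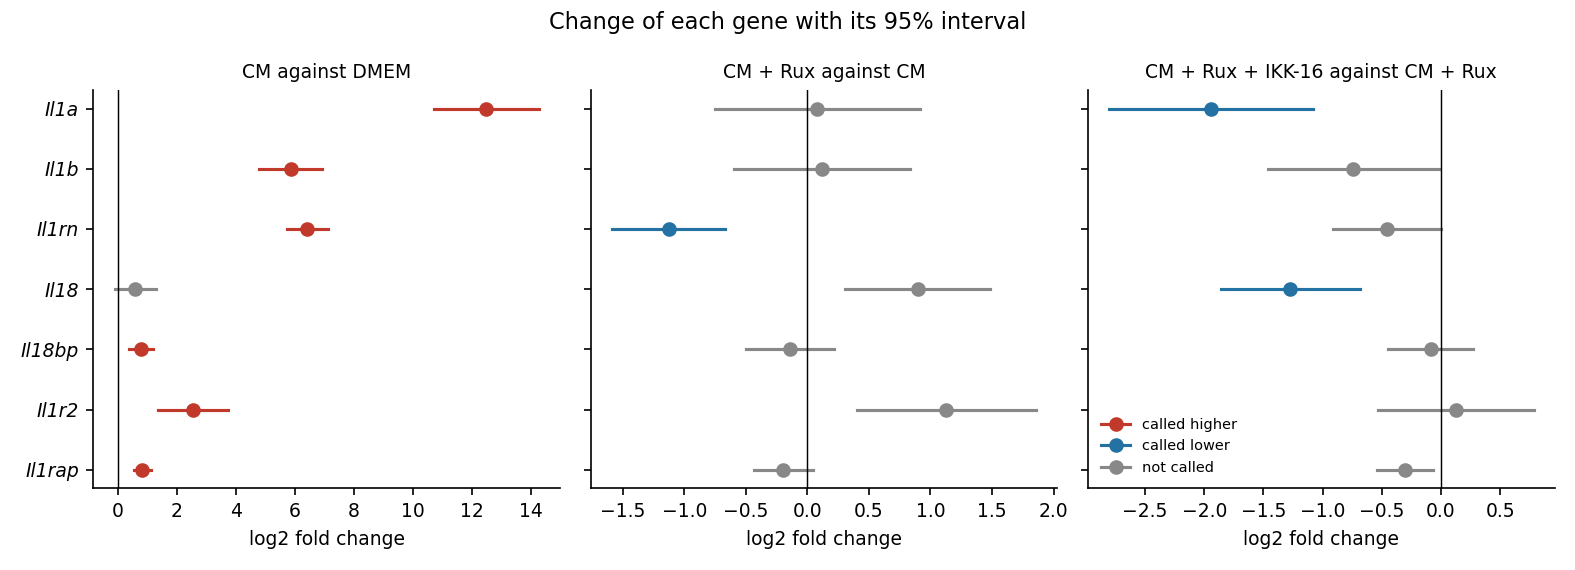
Log2 fold change of each gene (points) with its 95% interval (lines) in 3 comparisons, colored by call. The axes differ in scale. By the main test, Il1rn is the gene called in CM + Rux against CM, and Il1a and Il18 are those called after IKK-16.

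Since agonist and antagonist compete for one receptor, the log2 ratio of Il1rn to Il1b CPM was taken in each sample. It was -0.70, -0.19 and -0.63 in CM and -2.04, -1.37 and -1.89 in CM + Rux, so that ruxolitinib samples lay lower with no overlap. The difference of means was -1.26 (exact two-sided permutation p = 0.1, the smallest that 3 against 3 samples can give). Between same-numbered samples it was -1.34, -1.17 and -1.26, lower in 3 of 3 pairs (exact paired permutation p = 0.25, the smallest that 3 pairs can give). The CM + Rux 2 h samples, at -2.02 and -2.21, overlapped those of CM + Rux, and this difference was not tested. With IKK-16 added the ratio was -1.10, -1.51 and -1.67, which overlapped CM + Rux (difference 0.34, exact p = 0.3). Against CM, that is -0.92 with no overlap (exact p = 0.1). In DMEM the ratio was -1.67 and -0.02, and in DMEM + Rux 0.14, 0.67 and -0.62, with the DMEM samples far apart, and no difference from DMEM could be read (CM minus DMEM 0.34, exact p = 0.8; DMEM + Rux minus DMEM 0.91, exact p = 0.4; the smallest possible is 0.2). Without DMEM replicate 1 the difference of CM from DMEM was -0.48. These are ratios of CPM of genes of different length and say nothing of molar amounts.

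**Figure D3:**
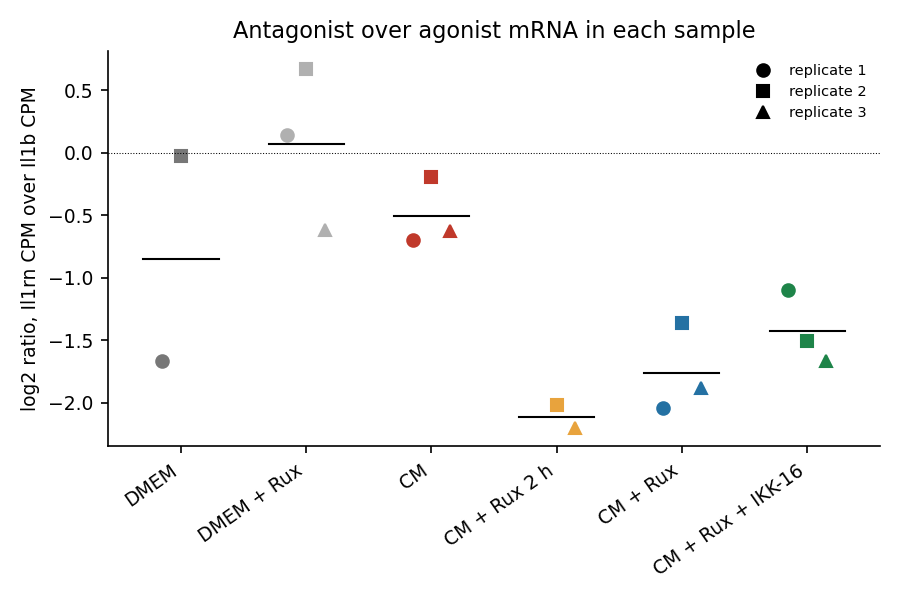
Log2 ratio of Il1rn CPM to Il1b CPM in each sample by group, with the mean as a line and a dotted line at equal CPM. All CM + Rux samples lie below all CM samples, and the DMEM samples are far apart.

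Il18 encodes a cytokine that drives interferon gamma production by lymphocytes, and was expressed at low levels throughout. It was 2.04 and 2.21 CPM in DMEM, 1.39, 1.94 and 2.40 CPM in DMEM + Rux and 2.61, 2.73 and 4.20 CPM in CM. The CM samples lay above the DMEM samples, but the difference was not called (log2 0.59, 95% interval -0.11 to 1.29, adjusted p = 0.13). CM + Rux held 5.15, 4.77 and 8.09 CPM, above every CM sample. By the main test the difference from CM was 0.90 on the log2 scale (95% interval 0.31 to 1.48) with an adjusted p of 0.088. With the replicate block it was 0.92 and called (adjusted p = 0.0010), as it was by DESeq2 (0.031) and without the filter (0.011).

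The clearest changes of Il18 were its rise with CM under ruxolitinib and its fall with IKK-16. CM + Rux was 3.07-fold above DMEM + Rux (log2 fold change 1.62, SE 0.28, adjusted p = 1.6e-04). CM + Rux + IKK-16 held 1.70, 2.39 and 3.29 CPM, all below the CM + Rux samples and near DMEM. The decrease was 2.42-fold (log2 fold change -1.27, SE 0.27, adjusted p = 0.0073) and was called in all 13 other fits tried, 6 of them with a sample left out. The effect of ruxolitinib on Il18 was 1.03 log2 units higher in CM than in DMEM by the main test (adjusted p = 0.46) and 1.28 with the replicate block (adjusted p = 0.0099). The 2 h samples held 4.61 and 4.91 CPM, within reach of the CM + Rux values (adjusted p = 0.42).

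Il18bp, the soluble trap for IL-18, rose with CM and was not called in any inhibitor comparison in CM. It was 4.58 and 5.08 CPM in DMEM and 7.68, 8.65 and 8.55 CPM in CM, a 1.72-fold increase (log2 fold change 0.79, SE 0.20, adjusted p = 0.0031). With total-count scaling the log2 fold change was 0.47, under the threshold. Levels were 6.69 to 8.65 CPM in CM + Rux and 6.76 to 7.31 CPM in CM + Rux + IKK-16, and overlapped. Their log2 difference was -0.09 (95% interval -0.45 to 0.27). The difference of CM + Rux from CM was -0.14 (95% interval -0.50 to 0.22).

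Il1r2, the decoy receptor, was expressed near the limit of detection in DMEM and stayed low in every group. It was 0.18 and 0.12 CPM in DMEM, which is 6 and 3 reads, and 0.89, 1.16 and 0.65 CPM in CM. The groups did not overlap, and the log2 fold change was 2.54 (SE 0.55, adjusted p = 0.0012). Il1r2 passed the filter only through samples with CM, so these values are a description. CM + Rux held 1.70, 2.86 and 1.32 CPM, above every CM sample. The main test gave a log2 difference of 1.13 (95% interval 0.40 to 1.86) with an adjusted p of 0.083. It was called with the replicate block (1.12, adjusted p = 0.031) and without the filter (0.023), and DESeq2 did not call it. Il1r2 was above 1 CPM in 1 CM sample and in all 3 CM + Rux samples. It passed the filter through groups with an inhibitor, so its differences from CM are a description.

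With both inhibitors Il1r2 held 2.71, 2.42 and 1.43 CPM, and the 2 h samples held 2.38 and 2.63 CPM. Both groups overlapped CM + Rux. Against CM, the samples with both inhibitors were 2.39-fold higher (log2 fold change 1.26, SE 0.34, adjusted p = 0.016). That call was lost without CM replicate 3 (adjusted p = 0.064) or without CM + Rux + IKK-16 replicate 1 (0.073). It is a description too, since Il1r2 passed the filter through groups with an inhibitor. The neutrophil marker sum, 4.40 to 5.85 CPM in CM + Rux and 2.60 to 5.30 CPM with IKK-16, stood beside 7.52 to 8.18 CPM in CM and 3.73 to 8.24 CPM at 2 h. Like Il1r2, the sum was higher in CM than in DMEM. In CM + Rux and CM + Rux + IKK-16 the sum was lower than in CM, and Il1r2 was higher than in CM. Its part in the Il1r2 values was not tested.

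Il1rap, the shared signaling chain of the receptors for IL-1, IL-33 and IL-36, showed small shifts against a narrow replicate spread. It was 17.1 and 18.1 CPM in DMEM and 29.2, 35.7 and 29.0 CPM in CM, a 1.78-fold increase (log2 fold change 0.83, SE 0.13, adjusted p = 7.9e-05). CM + Rux held 26.7, 28.5 and 26.7 CPM, below all CM samples, with a log2 difference of -0.20 that was not called (95% interval -0.44 to 0.042). CM + Rux + IKK-16 held 19.9, 24.4 and 22.0 CPM, below all CM + Rux samples, with a log2 difference of -0.30 that was not called (adjusted p = 0.086). From CM to both inhibitors the log2 fold change was -0.50 (SE 0.11, adjusted p = 0.0058), just beyond the threshold. It was inside the threshold with TMM scaling (-0.49), total-count scaling (-0.39), the compared groups alone (-0.49), without CM replicate 2 (-0.40) or without CM + Rux + IKK-16 replicate 1 (-0.43).

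Ordered by mean CPM, the groups ranked differently for agonists and antagonist. For Il1a and Il1b the order was DMEM + Rux, DMEM, CM + Rux + IKK-16, CM + Rux 2 h, CM and CM + Rux. Neighbors overlapped between CM + Rux + IKK-16 and CM + Rux 2 h for both genes, between CM and CM + Rux for Il1a and between the DMEM groups for Il1b. For Il1rn the order was DMEM, DMEM + Rux, CM + Rux 2 h, CM + Rux + IKK-16, CM + Rux and CM, with overlap between the DMEM groups and between CM + Rux + IKK-16 and CM + Rux. For Il18 and Il1r2 CM stood below CM + Rux, and for Il1rap CM stood highest. Il18bp was highest at 2 h, where its samples overlapped those of CM.

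The other ligands and receptors of the family, a list of 14 genes, had 6 above the filter. In CM against DMEM, 3 were called higher and 3 lower, beside 20.9% and 24.1% of all genes, and their median log2 fold change was 0.57, beside -0.00 over all genes. Of the 6, Il33 passed the filter only through samples with CM, and Il1rl1 only through samples without CM and at 2 h, so that each had to differ and these counts are a description. Il1r1, the signaling receptor for IL-1, stood at 0.92 ± 0.43 CPM in DMEM (SD, n = 2) and at 18.0 ± 4.2 CPM in CM (SD, n = 3). This 20.1-fold rise had an adjusted p of 2.3e-06. Il1rl2, the IL-36 receptor, rose 4.72-fold (adjusted p = 2.4e-05).

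Il33, an alarmin, had 0 counts in all DMEM samples and 0.94 ± 0.64 CPM in CM (SD, n = 3), at least 7.66-fold above the level of 3 counts in a DMEM library. It was above 1 CPM in 3 samples, and its call (adjusted p = 0.024) was lost without CM replicate 2 (0.063) or either DMEM replicate (0.10 and 0.079). The genes called lower were Il1rl1, the IL-33 receptor (1.17 ± 0.14 CPM in DMEM, SD, n = 2, and 0.26 ± 0.18 CPM in CM, SD, n = 3), Sigirr, an inhibitory receptor of the family (-1.84, adjusted p = 3.9e-05), and Il18rap, a chain of the IL-18 receptor (-1.09, adjusted p = 0.011). The Il18rap call was lost without DMEM replicate 1 (0.074). Il18r1, the other chain of that receptor, had at most 10 counts in any sample and was not tested.

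The same 3 genes were called higher and the same 3 lower in CM + Rux against DMEM + Rux, beside 22.3% and 25.0% of all genes. Il1r1 was 13.5-fold higher and Il33 at least 11.2-fold above the 3-count level. Without CM + Rux replicate 2, which held 3.68 CPM, that bound for Il33 was 3.55-fold. Il33 and Il1rl1 again passed the filter only through groups where they were high, so these counts are a description. In CM + Rux against CM, in the effect of ruxolitinib in CM against DMEM, and in DMEM + Rux against DMEM, none of the 6 was called by edgeR or DESeq2 and none had an unadjusted p under 0.05. Over all genes edgeR called 3.33%, 0.412% and 0.970% in these, like shares. In CM + Rux + IKK-16 against CM + Rux edgeR called none, beside 7.74% of all genes, with 2 under an unadjusted p of 0.05. There Il33 was lower with the replicate block (log2 fold change -3.01, adjusted p = 0.0014) and by DESeq2 (-3.16, adjusted p = 0.024), and Sigirr was higher with the block (0.62, adjusted p = 0.021). Il33 held 0.25 to 3.68 CPM in CM + Rux and 0.058 to 0.37 CPM with IKK-16, so these calls rest on few reads. Il33 was above 1 CPM in 2 CM samples, 1 CM + Rux sample and 0 samples with IKK-16. It passed the filter only through groups where it was high, so its differences with IKK-16 are a description. Against CM, the block also called Il33 lower (-2.41, adjusted p = 0.0060), and Sigirr was called higher by the main test after both inhibitors (log2 fold change 0.78, adjusted p = 0.037), a call lost without CM replicate 3 (0.12), without any of the CM + Rux + IKK-16 replicates (0.11, 0.067 and 0.052) and with the compared groups fitted alone (0.11). Against 2 h, CM + Rux had Il1rl1 (4.28-fold), Il18rap (3.27-fold) and Sigirr (1.65-fold) called lower, beside 12.6% of all genes, with Il1rl1 again past the filter only through groups where it was high. The Il1rl1 call was lost without CM + Rux 2 h replicate 2. The Sigirr call was lost in 7 of 12 other fits. Among them were those without CM + Rux 2 h replicate 2 or 3 or CM + Rux replicate 2 (adjusted p = 0.088) or 3 (0.12). With the replicate block, Il1rl2 (log2 fold change 0.52, adjusted p = 0.0022) and Il33 (2.61, adjusted p = 0.0032) were called higher against 2 h. Il33 passed the filter only through CM and CM + Rux samples, so its call is a description.

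Of 18 genes of IL-1 receptor signaling, 17 were tested, and CM against DMEM had 9 called higher and 3 lower, beside 20.9% and 24.1% of all genes (median log2 fold change 0.51, beside -0.00). With total-count scaling the counts were 6 and 4. The largest increases were in Irak3, an IRAK family member that restrains the pathway (log2 fold change 1.91, SE 0.12, adjusted p = 2.1e-08), and Peli1, an E3 ubiquitin ligase (1.04, adjusted p = 0.010; 0.064 without DMEM replicate 1). The largest decreases were in the kinase Irak1 (-0.66, adjusted p = 6.5e-07) and Peli2 (-0.62, adjusted p = 1.1e-04). In CM + Rux against DMEM + Rux, 10 were called higher and 3 lower, beside 22.3% and 25.0% of all genes (4 and 4 with total-count scaling), led by Irak3 (2.42) and Irak2 (1.47) and by Tab1 (-0.80) and Peli2 (-0.71).

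None of the 17 was called by edgeR or DESeq2 in CM + Rux against CM, where 3 had an unadjusted p under 0.05 and the median was 0.03. Over all genes edgeR called 3.33% there, a like share. In DMEM + Rux against DMEM and in the difference between the 2 ruxolitinib effects none was called by either tool, with 1 and 4 under an unadjusted p of 0.05. Over all genes edgeR called 0.970% and 0.412% in these, again like shares. IKK-16 added to CM + Rux lowered Irak3 (log2 fold change -0.62, adjusted p = 0.0012) and Tab2, an adaptor of the kinase TAK1 (-0.56, adjusted p = 2.1e-04), and called none higher (median -0.08), beside 3.66% of all genes called lower. With total-count scaling Tab2 was at -0.47, inside the threshold. Against CM, both inhibitors lowered Myd88, the adaptor of the receptor (-0.58, adjusted p = 1.1e-04; -0.48 with total-count scaling), 1 of 17 beside 6.13% of all genes called lower. CM + Rux against 2 h had 3 higher, led by Irak3 (1.29) and Tab1 (0.86), and 1 lower, Peli2 (-0.67). Those 4 of 17 stand beside 23.3% of all genes called either way, a like share.

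All 16 genes for processing and release of IL-1 and IL-18 were tested, and CM against DMEM had 9 called higher and 3 lower, beside 20.9% and 24.1% of all genes (median log2 fold change 0.63, beside -0.00; 6 and 5 called with total-count scaling). The inflammasome sensors Mefv (log2 fold change 3.57, SE 0.39, adjusted p = 3.3e-06) and Nlrp3 (3.23, SE 0.23, adjusted p = 6.3e-08) rose most. The ATP-gated channel P2rx7 (-0.88, adjusted p = 1.3e-04) and the sensor Nlrp1b (-0.83, adjusted p = 5.0e-05) fell most. Casp1, which encodes the protease that cleaves both precursors, was named after its values were seen and was not called (adjusted p = 0.060), except with total-count scaling, where it was lower (log2 fold change -0.64, adjusted p = 0.0040). CM + Rux against DMEM + Rux had the same counts, 9 higher and 3 lower, beside 22.3% and 25.0% of all genes (5 and 4 with total-count scaling), led by Nlrp3 (3.73) and Mefv (3.61) and by Nlrp1b (-1.19) and P2rx7 (-1.11).

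**Figure D4:**
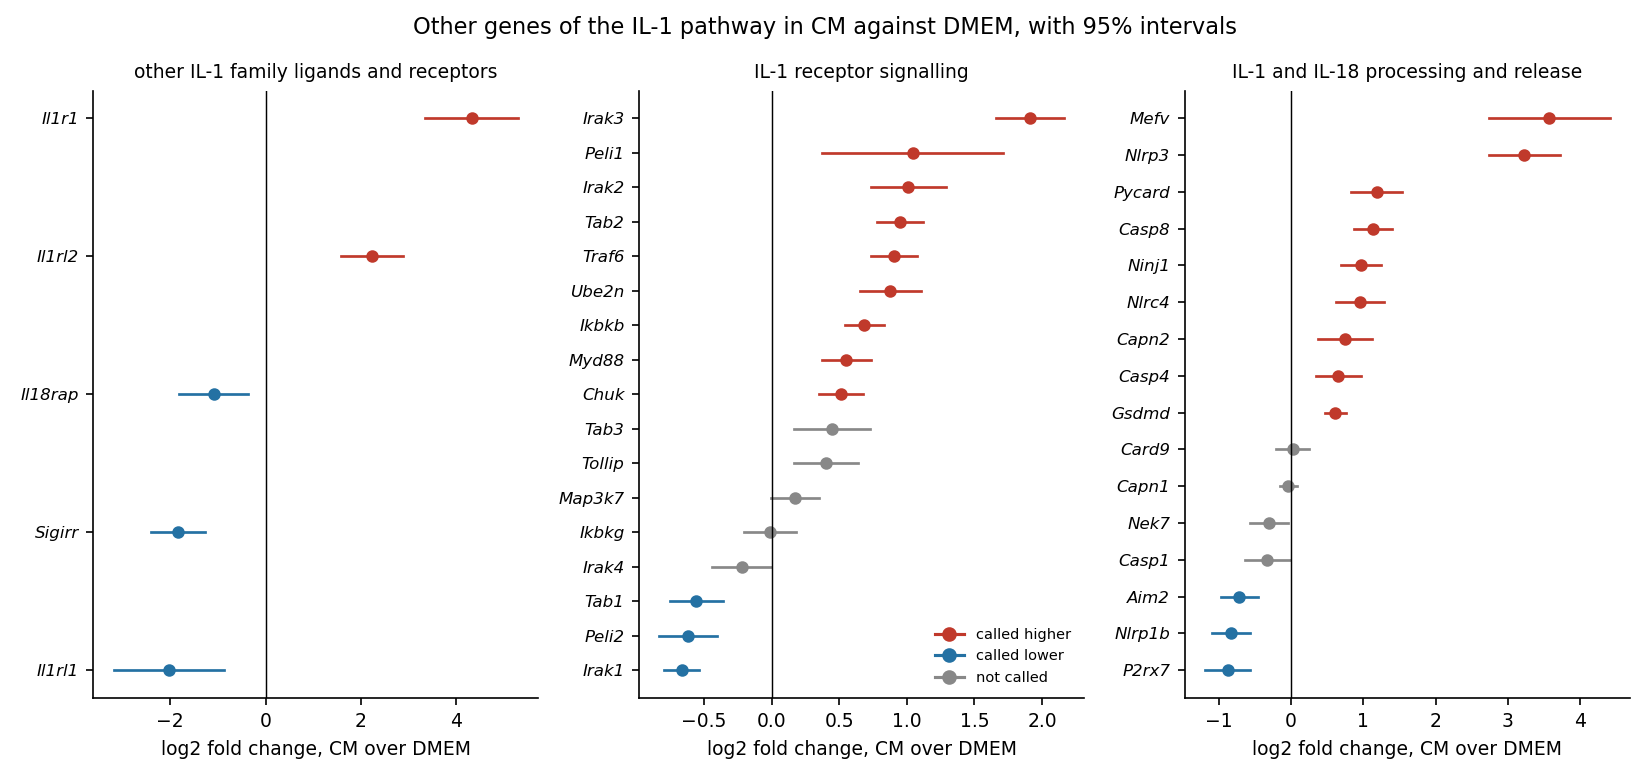
Log2 fold change in CM over DMEM (points) with 95% intervals (lines) for the tested genes of 3 pathway lists, colored by call. Il33, at 0 counts in DMEM, is not drawn. Il1r1, Irak3, Mefv and Nlrp3 stand at the top of their lists.

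CM + Rux against CM had 0 of the 16 called by edgeR or DESeq2, with 3 under an unadjusted p of 0.05 (median -0.09). Over all genes edgeR called 3.33%, a like share. The difference between the ruxolitinib effects in CM and DMEM had 0 called by either tool, with 2 under an unadjusted p of 0.05, beside 0.412% of all genes called by edgeR. IKK-16 added to CM + Rux lowered Casp4, the caspase that senses cytosolic lipopolysaccharide (log2 fold change -0.55, adjusted p = 0.012), and Pycard, the inflammasome adaptor (-0.51, adjusted p = 0.027), 2 of 16 beside 3.66% of all genes. Both lie near the threshold: Casp4 was inside it without CM + Rux replicate 1 (-0.47) or CM + Rux + IKK-16 replicate 2 (-0.44), and Pycard was not called in 6 of 13 other fits, including without CM + Rux replicate 2 (adjusted p = 0.12), CM + Rux + IKK-16 replicate 1 (0.12) or 3 (0.062). With total-count scaling neither was called and Nlrp1b was called higher (0.55), and with the replicate block Mefv was called lower (-0.71, adjusted p = 0.014). Against CM, both inhibitors lowered Pycard (-0.82, adjusted p = 0.0012), Casp4 (-0.76, adjusted p = 9.6e-04) and Nlrp3 (-0.56, adjusted p = 0.035), the last lost without CM replicate 1 (0.056) or 2 (0.15) or CM + Rux + IKK-16 replicate 1 (0.15) or 3 (0.10). These 3 of 16 stand beside 6.13% of all genes called lower. In DMEM, ruxolitinib lowered Casp4 (-0.71, adjusted p = 0.025), 1 of 16 beside 0.970% of all genes called lower. That call was lost in 5 of 12 other fits. Among them were total-count scaling and the fits without DMEM replicate 1 or DMEM + Rux replicate 1 (adjusted p = 0.12) or 3 (0.073). CM + Rux against 2 h had Nlrc4 higher (0.90), 1 of 16 beside 10.7% of all genes.

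The genes whose pattern over the 16 samples was nearest to that of each member were found by the root mean square difference of log2(CPM + 0.5), each gene centered on its own mean. Nearest to Il1b was the neutrophil-attracting chemokine Cxcl2 (difference 0.27, against 2.92 for the spread of Il1b itself), then the adenosine receptors Adora2a (0.49) and Adora2b (0.52). Nearest to Il1a were the chemokine Cxcl3 (0.97), the prostaglandin synthase Ptgs2 (1.29) and Il6 (1.36), against a spread of 5.01. Nearest to Il1rn were Pmepa1 (0.42), Inhba, an activin subunit (0.45), and Pdpn, podoplanin (0.46), against 2.46.

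Nearest to Il18 were Kdm4a (0.25), Pdgfb (0.28) and Tlnrd1 (0.29), against a spread of 0.58. All 3 averaged highest in CM + Rux among the 4 groups DMEM, CM, CM + Rux and CM + Rux + IKK-16. They were picked for their likeness to Il18 in these samples, so this is no separate evidence. Nearest to Il18bp were Eif1a, Gtpbp4 and Cldnd1 (0.16 each, against 0.43). Nearest to Il1rap were Hdac1 (0.079), Uba1 (0.11) and Phrf1 (0.12), against 0.37. Il1r2, with its low counts, was nearest to Gm40723 (0.30), C9orf72 (0.32) and Clba1 (0.32), against 0.85. These are descriptions over samples that share their groups.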

How the data were processed

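mRNA of 16 BMDM samples in 6 groups was measured by stranded paired-end RNA-seq. Per the labels and the study's methods, the authors trimmed reads with Trimmomatic 0.33, aligned them to GRCm38 with HISAT2 2.1.0 and counted them per gene with featureCounts 1.6.2, for which the file header names strand-specific counting of read pairs at a mapping quality of at least 10. The deposited values are raw counts per gene with no normalization, beside the exon length of each gene, and reads shared by near-identical genes were not assigned by any method described. Gene symbols came from GENCODE M21 (55141 of 55487 identifiers matched; the others held at most 0.0459% of a sample's counts), and promoters from RefSeq.

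After scaling by relative log expression, the genes that exceeded 1 CPM in 2 or more samples were tested in 1 edgeR 4.0.16 quasi-likelihood model over all groups (R 4.3.3), with Benjamini-Hochberg adjustment over 12372 genes. A call needed an adjusted p under 0.05 and a log2 fold change beyond 0.5, thresholds taken from the study's methods. Standard errors were the log2 fold change divided by the root of F. The Il1rn to Il1b ratio used a pseudocount of 0.5 CPM and exact permutation tests with SciPy 1.17.1, 5 comparisons whose p-values were not adjusted since none could pass. Floors used 3 counts and cover counting error only. Named genes were the 7 members, the tested genes of 1 list of other family members, the 2 largest called changes in each direction of 2 further lists (signaling; processing and release), and the 3 nearest patterns per member. The members and lists were chosen with earlier results of these data known, and the TATA box and the paired test of the ratio were added after the data were seen. The script was tested on simulated data.

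Replicates of a group differed by more than sampling noise (chi-square per degree of freedom 15.2 to 58.7), so none was counted as a copy. Same-numbered samples deviated together: the correlation of their deviations from group means was above 0.1 in 34 of 35 pairs of same-numbered samples (median 0.38, against -0.13 for 71 pairs with other numbers), the exception being a pair from CM + Rux 2 h and DMEM, groups that are not compared. The replicate number was therefore taken to pair the samples. The main test did not use this pairing, which entered only through the replicate block and the paired values of the ratio. The other settings tried were TMM scaling, total-count scaling (added after the data were seen), no filter or edgeR's own filter on low counts, the replicate block, DESeq2 1.42.0, the compared groups alone, and leaving out each sample.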

Additional observations from a re-analysis of the deposited data

How the results depend on the processing

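The 7 members gave 686 values on the same side of the threshold and in the same direction out of 739 compared over all settings, 15 were called only under the other setting, 15 lost their call and 23 changed sign. No value that changed sign was called in either fit. The cause of these changes was not tested. In CM + Rux against CM, where 1 member was called, 3 were called without the filter on low counts, 3 with the replicate block, 2 by DESeq2 and 0 with the compared groups fitted alone. For the interaction, which sets the effect of ruxolitinib in CM against that in DMEM and where 0 were called, 1 was called without the filter, 2 with the replicate block, 1 by DESeq2 and 1 with total-count scaling, and leaving out 1 sample gave 0 to 1, with the 1 call coming without CM + Rux replicate 2. In CM + Rux + IKK-16 against CM, leaving out 1 sample gave 2 to 4 calls, with 2 without CM + Rux + IKK-16 replicate 1. In CM + Rux against CM + Rux 2 h it gave 0 to 2, with 0 without CM + Rux 2 h replicate 3. The replicate block changed the calls of Il18 and Il1r2 in CM + Rux against CM and of Il1rn and Il18 in the difference of ruxolitinib effects, and no other call of a member. Over all genes it moved the calls in CM + Rux against CM from 412 to 745 and those of the difference of effects from 51 to 444, which DESeq2 put at 546 and 234.

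Signs also turned among uncalled values near 0. In the difference of ruxolitinib effects, the replicate block gave -0.021 for Il1r2 and -0.018 for Il1rap, and TMM scaling gave -0.0037 for Il1rap. Leaving out single samples took that difference from -0.29 to 0.42 for Il1r2, from -0.10 to 0.11 for Il1rap, from -0.074 to 0.34 for Il18bp and from -0.090 to 1.46 for Il1b, where DMEM replicate 1 decided the sign. It took Il1a in CM + Rux against CM from -0.14 to 0.30, Il18bp in CM + Rux + IKK-16 against CM + Rux from -0.17 to 0.0079, Il1r2 there from -0.065 to 0.51, and in DMEM + Rux against DMEM Il1b from -1.35 to 0.21 and Il18 from -0.32 to 0.026. The log2 ratio of Il1rn to Il1b in CM minus DMEM ran from -0.48 to 1.16 when 1 sample was left out. Depth limits the values that rest on few reads, among them Il33 (0 counts), Il1a (at most 13) and Il1r2 (at most 6) in DMEM and Il1rl1 (at most 13) in CM.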

Other observations

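Il1bos, the transcript antisense to Il1b, was chosen after its values were seen. It was 0.059 and 0 CPM in DMEM and 10.1, 7.10 and 14.7 CPM in CM, so it passed the filter only through samples with CM and this difference is a description. CM + Rux held 12.5, 9.81 and 15.98 CPM, overlapping CM (log2 difference 0.26, adjusted p = 0.78). CM + Rux + IKK-16 held 1.37, 2.48 and 2.68 CPM, far below every CM + Rux sample, and the decrease was 5.87-fold (log2 fold change -2.55, SE 0.31, adjusted p = 2.0e-04), called in all 13 other fits tried. In the same comparison Il1b itself was 1.67-fold lower and not called. As a share of the Il1b level in the same sample, Il1bos was 0.0947% to 0.225% in CM, 0.123% to 0.213% in CM + Rux, 0.216% to 0.327% in CM + Rux 2 h and 0.0407% to 0.0559% in CM + Rux + IKK-16. Its exons face 25 bases of those of Il1b, and the share of its reads that came from the Il1b strand was not measured.

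2 further ligands of the family that were below the filter and so not tested averaged highest in CM. Il1f9, which encodes IL-36γ, averaged 0.080 CPM in DMEM, 0.048 CPM in DMEM + Rux, 0.75 CPM in CM, 0.10 CPM in CM + Rux 2 h, 0.61 CPM in CM + Rux and 0.32 CPM in CM + Rux + IKK-16, from at most 34 counts a sample. Il1f6, which encodes IL-36α, had 0 counts in every DMEM and DMEM + Rux sample and at most 14 counts in any CM sample. Il1f8, Il1f5, Il1rapl1 and Il1rapl2 had 0 counts in every sample.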
